A study of Mus musculus with 2 samples.

Results

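The 38 genes described here are members of the 4 mouse Hox clusters, chosen by symbol from a list of Hox genes and not by any value in these libraries. They are 38 of the 21883 protein-coding genes of the RefSeq GRCm38.p6 gene table, with 10 in HoxA on chromosome 6, 10 in HoxB on chromosome 11, 9 in HoxC on chromosome 15 and 9 in HoxD on chromosome 2. The material was neural retina of adult C57BL/6 mice. One library came from a Gabra3 knockout (KO) mouse and one from a wild-type (WT) littermate, and Gabra3 is the gene of a GABA-A receptor subunit. Neither the allele nor the promoter and exons it affects are given in the labels, and 20000 nuclei went into each library. With 1 library per genotype no test between genotypes was possible, and every interval below covers counting error only.

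Hox genes encode homeodomain transcription factors that give cells their position along the head-to-tail axis, in an order that follows their order along each cluster. They are numbered by paralogue group, from the anterior groups that act in the hindbrain and pharyngeal arches to the posterior groups that act in the lower trunk, limbs and urogenital tract. The eye forms from tissue in front of the Hox domain, where Polycomb complexes are known to keep the clusters silent under H3K27 methylation, while CTCF is known to bind between some neighbouring Hox genes.

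ATAC-seq uses the Tn5 transposase to cut and tag accessible DNA, and each value below is a number of Tn5 insertions in 1 library. The KO library held 7646373 insertions and the WT library 7635799, or 3.11 per kb of autosome in each. Open regions called on both libraries together numbered 36840 and held 18.8% of autosomal insertions in the KO library, against 19.6% in the WT library. The 15 rod markers all had at least 20 insertions at a gene end, 1291 in the KO library and 1480 in the WT library in sum, with a log2 ratio of -0.14 (95% interval -0.25 to -0.03). Among markers of other cell types that a retina preparation could hold, 0 of 7 for endothelium and mural cells and 0 of 6 for fibroblasts reached 20 insertions, which 54.3% of all protein-coding genes did. In sum the endothelial and mural markers had 35 insertions in the KO library and 41 in the WT library, and the fibroblast markers 19 and 18. For microglia and blood 2 of 10 markers reached 20 insertions (58 in the KO library and 60 in the WT library in sum). For skeletal muscle 3 of 6 did (104 and 124 in sum), and most of that sum lay at Ckm, with 66 and 85. For the retinal pigment epithelium, the tissue next to the neural retina, 3 of 6 did (240 and 246 in sum). Most of that sum lay at Mitf, with 124 insertions in the KO library and 118 in the WT library, and at Pmel, with 88 and 104. The others were lower, with 21 and 15 at Dct, 4 in each library at Best1, 1 and 4 at Tyr, and 2 and 1 at Rpe65. Of these markers, Cx3cr1 was at 0 in the KO library and Lum at 0 in the WT library. The body of Gabra3 held 121 insertions in the KO library and 126 in the WT library (log2 ratio -0.06, -0.43 to 0.31, scaled to all autosomal insertions), so this locus does not check the genotype label at this depth.

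The retina had little accessible chromatin at Hox gene ends in either genotype. Counted within 500 bp of whichever gene end had more, the 38 members held 139 insertions in the KO library and 148 in the WT library. The median member had 2.5 insertions in the KO library and 3 in the WT library, and the median protein-coding gene had 13 in each. Over both libraries the median was 6 for Hox genes, 26 for all protein-coding genes and 3 for the 1110 olfactory receptor genes, which are used by sensory neurons of the nose. None of the 38 members reached the all-gene median of 26 in that sum. Only Hoxa4 held at least 20 insertions over both libraries, which is 1 of 38 members (2.63%) where 54.3% of all protein-coding genes did so. A pooled open region lay in the window of Hoxa4, Hoxa10 and Hoxb8, or 3 of 38 members (7.89%), against 50.6% of all protein-coding genes.

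**Figure D1:**
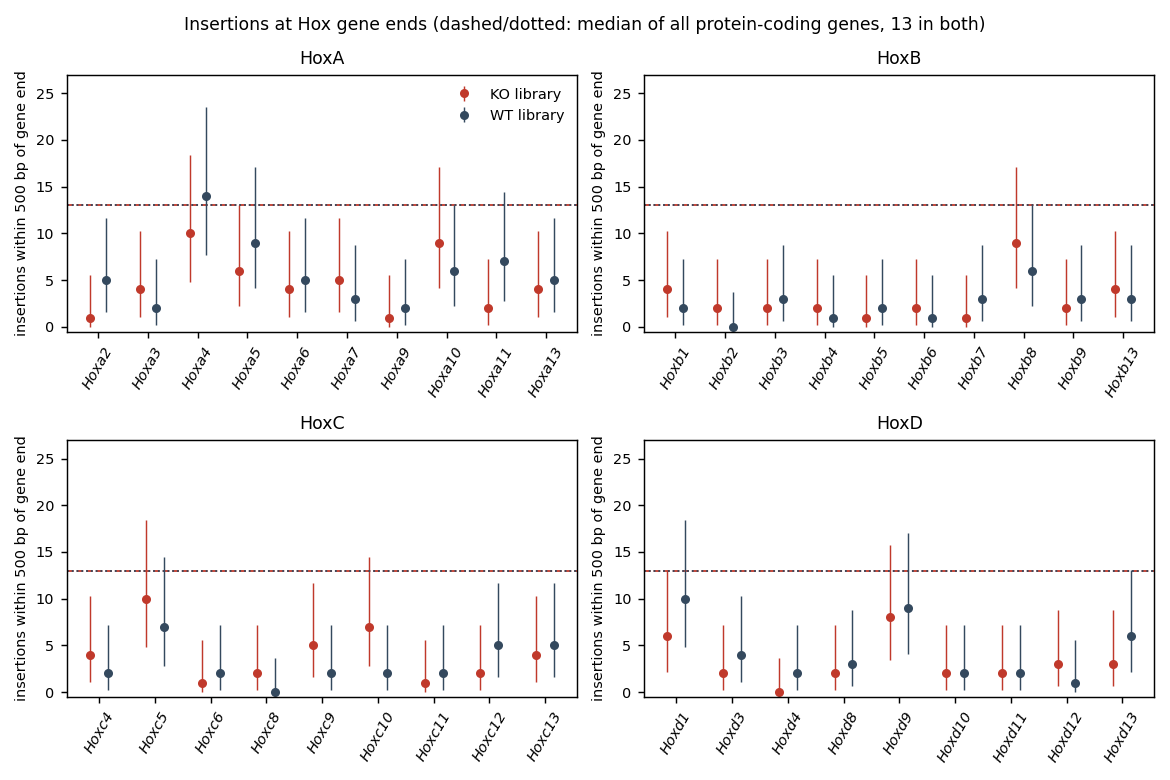
Insertions within 500 bp of a gene end (y axis) for each of the 38 Hox genes (x axis, by cluster), with the KO library left of the WT library and exact Poisson 95% intervals as bars; horizontal lines mark the all-gene median, which is 13 in each library. The points lie between 0 and 10 in the KO library and between 0 and 14 in the WT library, and Hoxa4 in the WT library is the one point above the line.

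The Hox promoters with a listed start held few insertions whether they were rich or poor in CpG, the dinucleotide that marks many open promoters. The RefSeq promoter table of GRCm38.p6, which gives 250 bases before to 50 bases after a start site, held 22 of the 38 members. Most of these are in HoxA and HoxD. From HoxB the promoter table holds only Hoxb1, Hoxb4 and Hoxb8, from HoxC only Hoxc4, and it lacks Hoxa4, the member with most insertions. A set of 5 sequences from it is printed 5′ to 3′ in lower case with each CpG in capitals: a CpG-dense promoter of HoxA (Hoxa5, for a central-group gene needed for lung development), the one with most CpGs (Hoxa13, a gene of the digits and urogenital tract), the member with most insertions at its start (Hoxd9), a CpG-poor member (Hoxd4, a gene of the hindbrain and neck vertebrae), and, for comparison, Six6, a homeobox gene of the eye field.
Hoxa5: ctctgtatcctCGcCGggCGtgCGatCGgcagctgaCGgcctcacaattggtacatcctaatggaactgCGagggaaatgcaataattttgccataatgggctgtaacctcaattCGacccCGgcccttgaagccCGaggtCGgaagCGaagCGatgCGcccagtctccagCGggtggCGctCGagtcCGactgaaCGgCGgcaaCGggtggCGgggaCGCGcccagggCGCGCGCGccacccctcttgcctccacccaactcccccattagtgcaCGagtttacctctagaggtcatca
Hoxa13: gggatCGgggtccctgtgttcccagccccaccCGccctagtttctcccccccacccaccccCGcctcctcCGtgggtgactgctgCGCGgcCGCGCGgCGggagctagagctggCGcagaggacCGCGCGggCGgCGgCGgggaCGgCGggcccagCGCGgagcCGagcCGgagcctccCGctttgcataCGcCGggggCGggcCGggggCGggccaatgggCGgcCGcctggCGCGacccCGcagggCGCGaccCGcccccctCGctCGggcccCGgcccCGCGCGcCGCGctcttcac
Hoxd9: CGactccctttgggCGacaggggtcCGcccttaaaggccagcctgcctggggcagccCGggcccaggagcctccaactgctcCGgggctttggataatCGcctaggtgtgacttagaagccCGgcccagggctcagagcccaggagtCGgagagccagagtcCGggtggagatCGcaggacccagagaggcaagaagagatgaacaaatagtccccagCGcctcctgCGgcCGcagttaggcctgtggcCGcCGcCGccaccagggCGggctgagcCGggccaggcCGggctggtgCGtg
Hoxd4: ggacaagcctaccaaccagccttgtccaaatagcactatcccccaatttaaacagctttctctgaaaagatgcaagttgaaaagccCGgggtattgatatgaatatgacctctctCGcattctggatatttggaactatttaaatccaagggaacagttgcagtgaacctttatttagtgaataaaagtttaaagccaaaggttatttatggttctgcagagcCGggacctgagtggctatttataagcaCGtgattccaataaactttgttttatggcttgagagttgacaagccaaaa
Six6: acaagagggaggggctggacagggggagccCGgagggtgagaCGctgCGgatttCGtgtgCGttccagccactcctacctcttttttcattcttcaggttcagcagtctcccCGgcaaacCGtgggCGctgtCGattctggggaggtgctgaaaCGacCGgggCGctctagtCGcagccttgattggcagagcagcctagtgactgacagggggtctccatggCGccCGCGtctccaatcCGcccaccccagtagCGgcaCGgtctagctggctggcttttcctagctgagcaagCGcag

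The Hoxa5 promoter (chr6:52204538-52204837, minus strand) has 29 CpGs, and its start had 6 insertions in the KO library and 9 in the WT library within 500 bp. The Hoxa13 promoter (chr6:52260831-52261130, minus strand) has 45 CpGs, and its start had 4 insertions in the KO library and 5 in the WT library. The Hoxd9 promoter (chr2:74697513-74697812, plus strand) has 20 CpGs, and its start had 8 insertions in the KO library and 9 in the WT library. The Hoxd4 promoter (chr2:74721728-74722027, plus strand) has 4 CpGs, and its start had 0 insertions in the KO library and 2 in the WT library. The Six6 promoter (chr12:72939632-72939931, plus strand) also has 20 CpGs, and its start had 36 insertions in the KO library and 39 in the WT library. Hoxd9 and Six6 thus share their number of CpGs, while each Six6 count stood well above that of Hoxd9. They are not matched in observed over expected CpG ratio, which is 0.573 for Hoxd9 and 0.689 for Six6. By the cutoff of 0.6 used below, only Six6 is CpG-rich.

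Of the 22 members in the table, 10 were CpG-rich, here an observed over expected CpG ratio of at least 0.6 with at least 50% GC. Their starts held a median of 7.5 insertions over both libraries, from 4 to 16, and 0 of 10 reached 20. Among all 8281 CpG-rich starts the median was 173, and 92.9% reached 20. Only 5.75% of all CpG-rich starts had no more insertions than the CpG-rich Hox gene with most. The 12 Hox starts that were not CpG-rich held a median of 3, from 2 to 17, and 0 of 12 reached 20. All 9210 starts that were not CpG-rich had a median of 7, and 26.8% reached 20, so the contrast was smaller there. The 10 CpG-rich starts of retinal homeobox genes had a median of 54 insertions, from 15 to 76, and 9 of them reached 20. The 9 CpG-rich starts of other developmental transcription factors, which act outside the retina, had a median of 15, from 4 to 26. Of these, 2 reached 20. Those 3 gene lists overlap in their ranges, and the Hox genes had the lowest median of them.

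**Figure D2:**
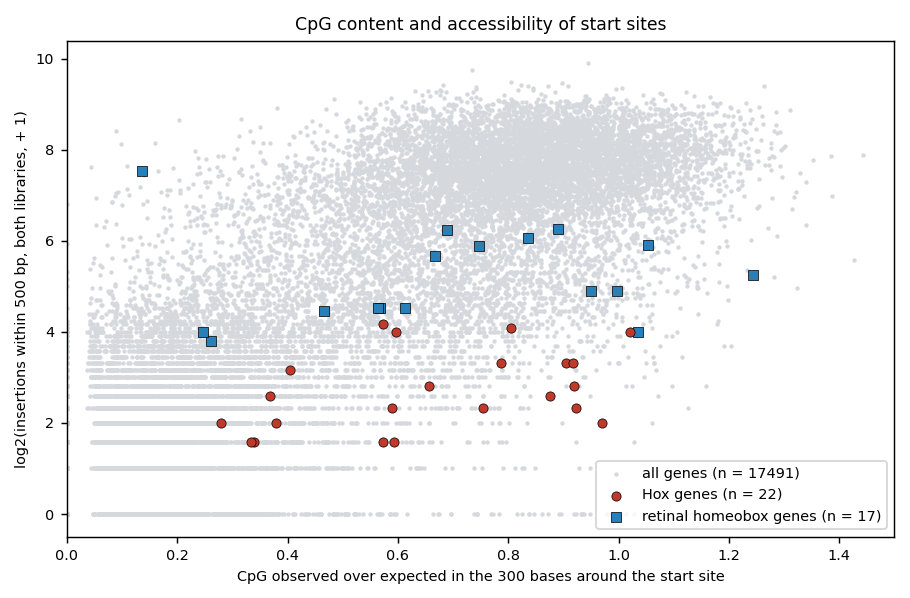
Observed over expected CpG ratio of each promoter sequence (x axis) against the insertions within 500 bp of its start, both libraries summed, as log2 of the count plus 1 (y axis), for the 22 Hox genes, the 17 retinal homeobox genes and all 17491 genes of the table. The Hox genes lie between 2 and 17 insertions along their whole CpG range of 0.28 to 1.02, and CpG-rich genes as a whole have a median of 173; 2 genes past the end of the x axis at 1.5 are not drawn.

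The listed Hox starts, mostly of HoxA and HoxD, lacked the tall peak of insertions seen over all genes. In the 200 bp before the start, the 22 Hox genes had 3.64 insertions per kb and gene (95% interval 2.08 to 5.91) in the KO library and 4.55 (2.78 to 7.02) in the WT library. The 17 retinal homeobox genes had 38.2 in the KO library and 38.5 in the WT library at the same distance, and all genes of the table had 91.5 and 96.4. The 18 other developmental transcription factors had 3.06 (1.53 to 5.47) in the KO library and 7.78 (5.17 to 11.2) in the WT library. The missing tall peak was thus not particular to Hox genes. In the other bins of 200 bp up to 2000 bp before the start, the Hox genes had 1.59 to 3.18 insertions per kb and gene in the KO library and 0.909 to 2.5 in the WT library, all below the value just before the start. In the 2000 bp after the start they had 1.59 to 5.45 in the KO library and 1.59 to 5.91 in the WT library, so bins inside the genes reached higher than the bin before the start.

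**Figure D3:**
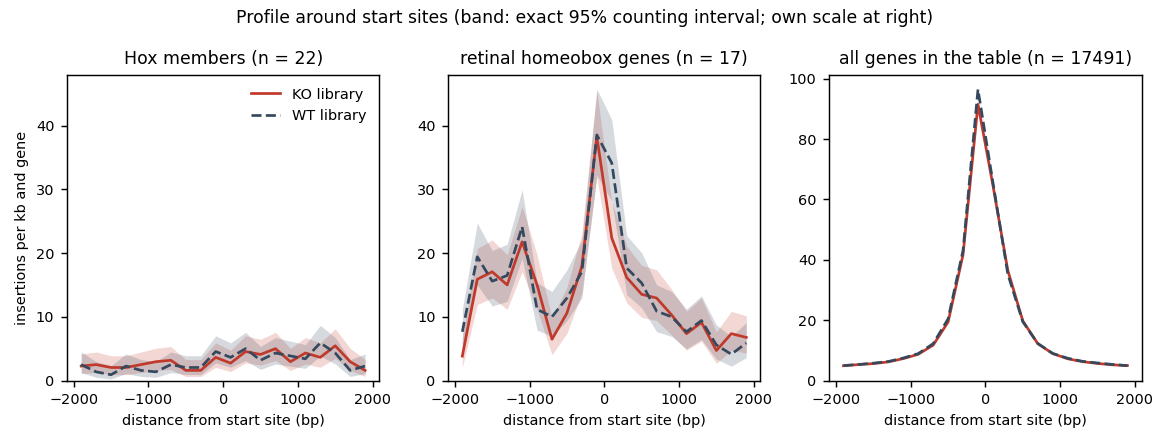
Insertions per kb and gene (y axis) by distance from the start site in bp (x axis, bins of 200 bp) for the 22 Hox genes, the 17 retinal homeobox genes and all genes of the promoter table, with the KO library and the WT library as separate lines. In the bin before the start the Hox lines stand at 3.64 in the KO library and 4.55 in the WT library, and the all-gene lines at 91.5 and 96.4.

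The letters searched in the 22 promoters, on both strands, were about as frequent as in all promoters of the table for the commonest motif. CCCTC, a core of the CTCF motif, was in 16 (72.7%) of the Hox promoters and in 68.9% of all. The longer stretch CCACNAGG of the CTCF motif was in 2 (9.09%), Hoxd9 and Hoxb4, and in 4.97% of all. The homeodomain letters TAATTA were in 1, Hoxd11, and in 4.57% of all. The Hox and Pbx letters TGATTNAT were in 2, Hoxd11 and Hoxa2, and in 2.87% of all. The GAGA repeat GAGAGAG was in 2, Hoxd13 and Hoxd4, and in 9.31% of all, and AGGTCA repeated after 5 bases, a retinoic acid response element, was in 0 of 22 Hox promoters and in 1 of all 17491.

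The 11 anterior genes (paralogue groups 1 to 4) held 37 insertions in the KO library and 45 in the WT library. Hoxa4, a gene of the neck region, held most of any member, with 10 insertions in the KO library (95% interval 4.80 to 18.4) and 14 in the WT library (7.65 to 23.5). Its log2 ratio of KO over WT was -0.41, with an interval of -1.76 to 0.85 that includes 0. Hoxd1, which in the mouse is known from pain-sensing neurons, had 6 insertions in the KO library and 10 in the WT library. Hoxb1, the gene of the fourth hindbrain segment, had 4 in the KO library and 2 in the WT library. Hoxa2, which patterns the second pharyngeal arch, had 1 in the KO library and 5 in the WT library, and Hoxa3, which patterns the third, had 4 and 2. Hoxb2, another hindbrain gene, had 2 insertions in the KO library and 0 in the WT library, and Hoxd4 had 0 in the KO library and 2 in the WT library. A count of 0 allows up to 3 as a one-sided 95% limit, and the ratio interval of each of these pairs includes 0. The remaining anterior genes Hoxb3, Hoxb4, Hoxc4 and Hoxd3 held 1 to 4 insertions in each library.

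The 11 central genes (paralogue groups 5 to 8), which act in the neck and thorax, held 43 insertions in the KO library and 41 in the WT library. Hoxc5 had 10 insertions in the KO library and 7 in the WT library, the highest central count in the KO library. Hoxa5 had 6 in the KO library and 9 in the WT library, but its window overlaps that of Hoxa6, which had 4 and 5, so some insertions are counted for both. Hoxb8, a gene of the thorax and of a microglial lineage, had 9 insertions in the KO library and 6 in the WT library. Those of Hoxb8 lay at its table end with the lower coordinate and not at its listed start, where there were 2 in the KO library and 1 in the WT library. Hoxc8, a gene of the thoracic skeleton, had 2 insertions in the KO library and 0 in the WT library. Hoxb5 had 1 in the KO library and 2 in the WT library, and Hoxc6 the same. The remaining central genes Hoxa7, Hoxb6, Hoxb7 and Hoxd8 ranged from 1 to 5 insertions in each library.

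The 16 posterior genes (paralogue groups 9 to 13) held 59 insertions in the KO library and 62 in the WT library. Hoxd9, a limb and lumbar gene, had 8 insertions in the KO library and 9 in the WT library, and Hoxa10, a gene of the uterus and lumbar region, had 9 and 6. Hoxc10, which acts in lumbar motor neurons, had 7 insertions in the KO library and 2 in the WT library. Hoxa11, a gene of the forearm and uterus, had 2 in the KO library and 7 in the WT library, so Hoxc10 and Hoxa11 lean opposite ways on counts this small. Hoxd13, the digit gene, had 3 in the KO library and 6 in the WT library. Hoxb13, a prostate and tail gene, had 4 in the KO library and 3 in the WT library, and Hoxc13, a hair and nail gene, had 4 and 5. Hoxa9, a gene of blood progenitors, had 1 in the KO library and 2 in the WT library, as did Hoxc11. Hoxd10 and Hoxd11 had 2 insertions in each library. The remaining posterior genes Hoxa13, Hoxb9, Hoxc9, Hoxc12 and Hoxd12 held 1 to 5 insertions in each library. Over both libraries the median was 6 for the anterior, 5 for the central and 7 for the posterior genes.

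No difference between the genotypes was detectable at Hox gene ends at this depth. Summed over the 38 members the log2 ratio of KO over WT was -0.03 (95% interval -0.38 to 0.31), with counts scaled to autosomal insertions in open regions and a pseudocount of 0.5. Fewer insertions were counted in the KO library at 21 members, more at 15, and equal numbers at 2. The interval of the ratio included 0 for each of the 38 members. None passed 2-fold with at least 20 insertions, and only Hoxa4 had the counts to do so; among all 11889 genes with that many, 0.925% passed 2-fold higher in the KO library and 0.622% passed 2-fold lower. By cluster the gene-end sums were 46 insertions in the KO library and 58 in the WT library for HoxA, 29 and 24 for HoxB, 36 and 27 for HoxC, and 28 and 39 for HoxD. All 4 of those ratios had intervals that include 0.

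HoxA had a higher insertion density than the other 3 clusters in both libraries. Insertions were counted from the first to the last listed gene, over 98.5 kb of HoxA (chr6:52162417-52260880), 173.9 kb of HoxB (chr11:96194316-96368254), 115.7 kb of HoxC (chr15:102921131-103036856) and 96.9 kb of HoxD (chr2:74668225-74765142). HoxA had 1.12 times the autosomal mean density (95% interval 1.01 to 1.25) in the KO library and 1.06 times (0.950 to 1.18) in the WT library. The KO interval of HoxA included the mean with repeated reads kept (0.943 to 1.16) and with reads of any mapping quality (0.954 to 1.18). It also did so with clusters widened by 10 kb (0.956 to 1.17). HoxD had 0.707 times (0.615 to 0.808) in the KO library and 0.608 times (0.523 to 0.703) in the WT library. HoxC had 0.619 times in the KO library and 0.551 times in the WT library. HoxB was lowest, with 0.518 times in the KO library and 0.474 times in the WT library. The interval of HoxA lay above those of the other 3 clusters in each library. Without the long gap between Hoxb13 and Hoxb9, the stretch from Hoxb9 to Hoxb1 had 0.527 times the mean in the KO library and 0.482 times in the WT library. Reads with a mapping quality under 10 made up 0.546% of those in the clusters in the KO library and 0.683% in the WT library, against 6.61% and 6.40% genome-wide.

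HoxA also stood above its own surroundings. Its density was 1.55 times that of the 100 kb on each side (95% interval 1.34 to 1.79) in the KO library and 1.59 times (1.37 to 1.85) in the WT library. HoxD was at 0.947 times its flanks in the KO library and 0.893 times in the WT library, and HoxC at 1.10 and 1.04 times. For HoxB the ratio to the flanks was 1.08 (0.917 to 1.28) in the KO library and 1.34 (1.12 to 1.62) in the WT library.

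**Figure D4:**
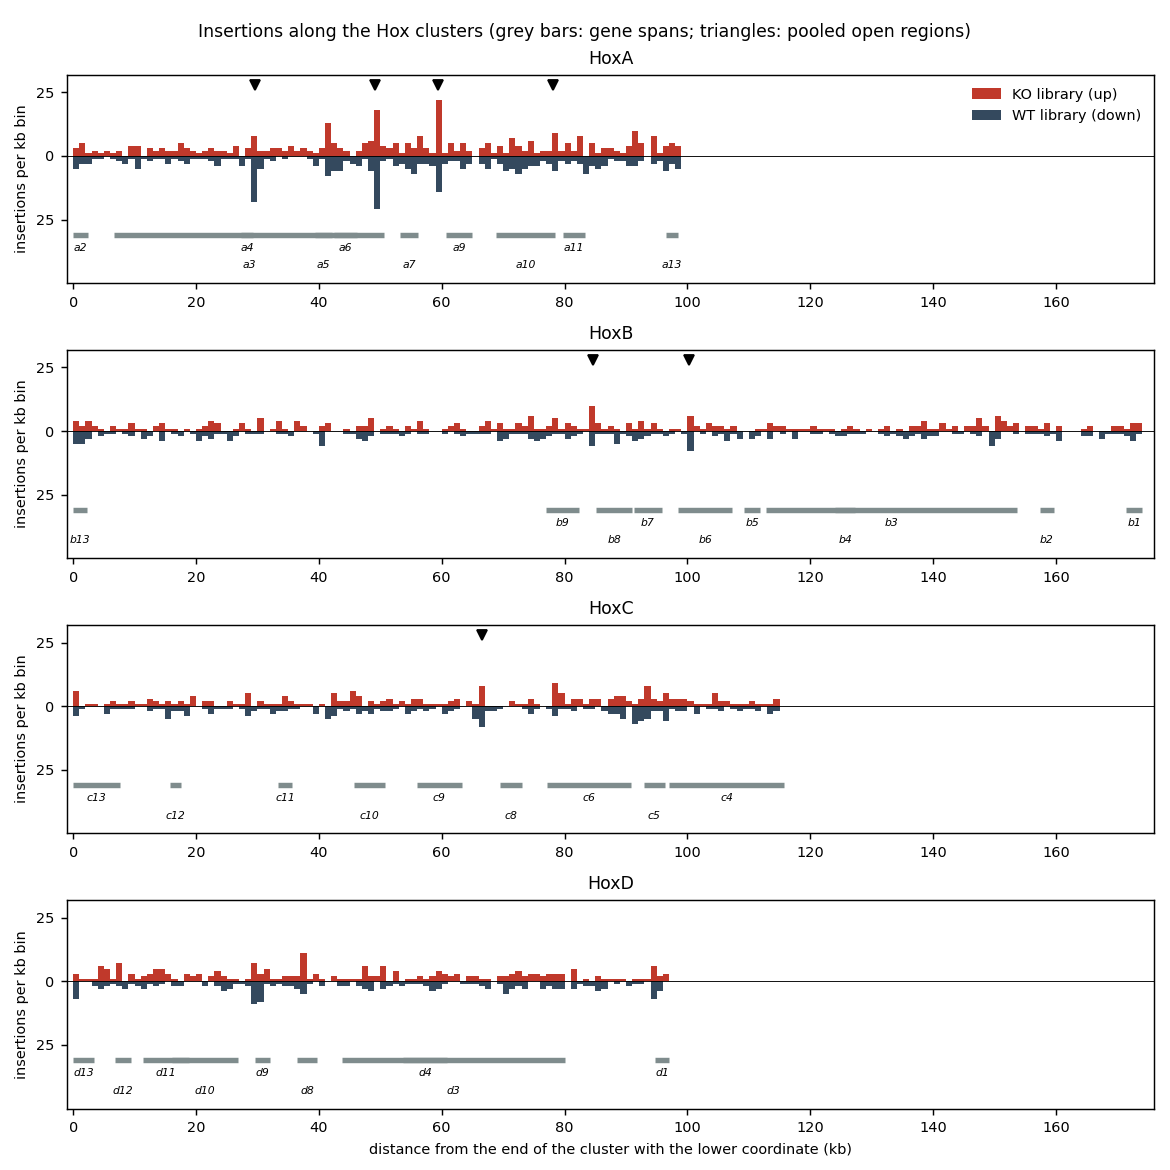
Insertions per 1 kb bin (y axis, KO library up and WT library down) along each Hox cluster by distance in kb from its end with the lower coordinate (x axis); grey bars are gene spans and triangles pooled open regions. HoxA carries 4 of the 7 open regions and HoxD has 0.

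Within the clusters the excess of insertions at gene ends was small beside that of the genome. Over all 4 clusters the density within 500 bp of a gene end was 1.23 times that elsewhere in the cluster (95% interval 1.04 to 1.45) in the KO library and 1.46 times (1.24 to 1.72) in the WT library, where over all autosomes it was 8.68 times and 8.91 times. For HoxA it was 0.889 times (0.658 to 1.18) in the KO library and 1.29 times (0.983 to 1.68) in the WT library. It was 1.30 times for HoxB, 1.63 times (1.16 to 2.25) for HoxC and 1.09 times for HoxD in the KO library, and 1.35 times, 1.36 times and 1.53 times (1.07 to 2.16 for HoxD) in the WT library. HoxA thus had the highest density of the 4 clusters with no excess at its gene ends beyond these intervals. In 95 full bins of 5 kb, the median was 10 insertions in the KO library and 9 in the WT library, and autosomal bins had 9 in each. Of those bins 49 of 95 were above the autosomal median over both libraries, 2 were above its 90th percentile and 0 above its 95th. The bins with most insertions were both in HoxA. One, at chr6:52217417-52222416 with the end of Hoxa7, had 37 insertions in the KO library and 31 in the WT library. The other, at chr6:52207417-52212416 with an end of Hoxa6, had 31 in the KO library and 35 in the WT library. The stretch from Hoxa6 to Hoxa9, picked out after these values were seen, had 1.56 times the autosomal mean (1.28 to 1.88) in the KO library and 1.53 times (1.25 to 1.85) in the WT library.

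The clusters held 7 pooled open regions, or 14.4 per Mb, near the 15.0 per Mb of all autosomes, but the regions were weaker, with a median of 14 insertions over both libraries against 30. The strongest, at chr6:52211301-52211900 between Hoxa6 and Hoxa7 and inside the annotated span of Hoxa3, had 19 insertions in the KO library and 18 in the WT library. It was called in each library alone, and its sum of 37 was at the 57.3rd percentile of all open regions. The next, at chr6:52221601-52222000 between Hoxa7 and Hoxa9, had 17 in the KO library and 9 in the WT library (log2 ratio 0.94, -0.27 to 2.32). The centres of these regions lay 1.47 kb and 1.30 kb from the nearest member gene end in the table. The region at Hoxa4, chr6:52191801-52192150, had 4 insertions in the KO library and 11 in the WT library, and its log2 ratio of -1.29 had an interval of -3.51 to 0.35. The region at Hoxa10, chr6:52240401-52240700, had 7 in the KO library and 3 in the WT library. In HoxB, a region between Hoxb9 and Hoxb8 (chr11:96278751-96279100) had 9 in the KO library and 5 in the WT library, and one in Hoxb6 (chr11:96294501-96294750) had 3 and 8. In HoxC, one region between Hoxc9 and Hoxc8 (chr15:102987501-102987800) had 6 in each library. None of the 7 ratios had an interval that excludes 0.

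Summed over the 4 clusters, 1060 insertions in the KO library and 962 in the WT library gave a log2 ratio of 0.20 (95% interval 0.07 to 0.33), which excludes 0. With scaling to all autosomal insertions it was 0.14 (0.01 to 0.27). The cluster ratios were 0.14 (-0.08 to 0.36) for HoxA, 0.19 (-0.06 to 0.44) for HoxB, 0.23 (-0.05 to 0.51) for HoxC and 0.28 (-0.01 to 0.57) for HoxD. The HoxD interval excluded 0 under 2 alternatives, at 0.29 (0.01 to 0.58) with repeated reads kept and at 0.38 (0.05 to 0.72) without the gene-end windows. The flanks of all 4 clusters summed had a ratio of 0.23 (0.13 to 0.34). It was 0.18 for HoxA, 0.14 for HoxC, 0.19 for HoxD and, highest, 0.50 (0.24 to 0.76) for HoxB, where 297 insertions in the KO library stood against 219 in the WT library. All autosomal insertions outside open regions had a ratio of 0.08 on the same scale, just inside the interval of the 4-cluster ratio. Among 3625 autosomal bins of 100 kb with 396 to 669 insertions, the central 95% of ratios ran from -0.25 to 0.33, all 4 cluster ratios lay inside it, and the ratio of the HoxB flanks lay above it. Rod markers and the share of insertions in open regions were lower in the KO library, and their part in these ratios was not tested.

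**Figure D5:**
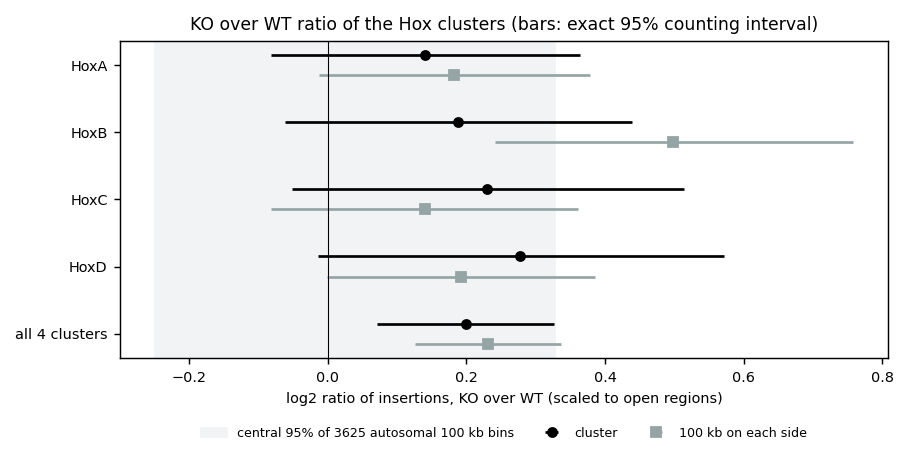
Log2 ratio of KO over WT insertions (x axis) for each Hox cluster (circles) and for the 100 kb on each side of it (squares), with Clopper-Pearson 95% intervals as bars and the central 95% of autosomal bins of 100 kb shaded. The 4 cluster ratios lie between 0.14 and 0.28, and their intervals all include 0.

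Of 5 lists of genes that regulate or work with Hox genes, 4 had more members with at least 20 insertions than the 54.3% of all protein-coding genes, and the retinoic acid and Cdx list had about that share. Polycomb repressive complex 2, which methylates H3K27, had a median of 233.5 insertions over both libraries and at least 20 at 12 of 12 members, led by Jarid2 with 194 in the KO library and 206 in the WT library. Polycomb repressive complex 1, which binds that mark and compacts chromatin, had a median of 164 and 20 or more at 18 of 19, led by Cbx8 with 239 in the KO library and 245 in the WT library. The Trithorax and H3K27 demethylase genes, which oppose Polycomb, had a median of 181 with 7 of 9 at 20 or more. Hox cofactors of the Pbx, Meis and Pknox families, which bind DNA beside Hox proteins, had a median of 74 with 8 of 9 at 20 or more. Retinoic acid and Cdx genes, which switch Hox genes on in the trunk, had a median of 20 over both libraries, under the all-gene median of 26. In that list 8 of 15 (53.3%) were at 20 or more, and 4 of 15 (26.7%) had an open region where 50.6% of all genes did. None of these 5 lists had a member past 2-fold with at least 20 insertions in either direction. Among all genes with that many, 0.925% passed 2-fold higher in the KO library and 0.622% lower. At those shares a count of 0 in lists this small says little. Below the minimum of 20, the cofactor Meis3 had 1 insertion in the KO library and 10 in the WT library, with a log2 ratio of -2.75 (-8.70 to -0.45). Meis3 was picked from all genes of the 5 lists, among which some intervals can exclude 0 by counting error alone.

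Low gene-end counts were shared with other developmental regulators of tissues outside the retina. The 30 transcription factors of other tissues had 180 insertions in the KO library and 192 in the WT library, a median of 10.5 over both libraries, 6 members with at least 20 and 0 with an open region. The 21 retinal homeobox genes, relatives of Hox genes by their homeodomain, had 490 insertions in the KO library and 543 in the WT library, a median of 31, 15 with at least 20 and 14 with an open region. Of the 15 with at least 20, 1 passed 2-fold higher in the KO library and 1 lower. Among all genes with that many, 0.925% passed higher and 0.622% lower. Crx, the photoreceptor homeobox gene, had 80 in the KO library and 105 in the WT library. Next to the clusters, the homeobox genes Evx1 and Evx2, which adjoin HoxA and HoxD, were as low as Hox genes, with 4 insertions in the KO library and 6 in the WT library for Evx1 and 4 in each for Evx2. Of all 13 neighbours 8 had at least 20 insertions and 9 an open region. Among the neighbours with many were Cbx5 near HoxC, with 172 in the KO library and 191 in the WT library, and Skap2 near HoxA, with 144 and 141. Near HoxB, Skap1 had 5 in the KO library and 6 in the WT library, Calcoco2 had 5 and 3, and Ttll6 had 5 and 2, so low counts were not particular to the homeobox neighbours. The 6 spinal cord and hindbrain neuron markers, from tissue in which Hox genes are known to be used, had 58 insertions in the KO library and 50 in the WT library, and Isl1, which the retina also uses, was the 1 member with at least 20. In bulk tissue, fewer cells with an open gene and less accessibility in each cell cannot be told apart.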

How the data were processed

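ATAC-seq reads of 1 KO and 1 WT library were deposited by the authors as aligned read intervals in BED form, with a mapping quality score for each read in the deposited score column. The reads were 75 bp and single-end. The submitters' processing notes name Trimmomatic 0.33, BWA and bedtools 2.23.0 with GRCm38; no role or setting is stated there.

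Reads with a score of at least 10 were reduced to their 5′ ends, moved by +4 bases on the plus strand and -5 on the minus strand, and counted once per position and strand. Of 9038110 KO and 9170838 WT reads, 93.4% and 93.6% passed, and repeats were 9.41% and 11.0% of those. Gene-end windows reached 500 bp to each side of the annotated end with more insertions in both libraries together, since the gene table gives no strand. The same choice was made for every gene, and its effect differs between genes; for 12 of the 22 members with a listed start it was the start. The windows of Hoxa5 and Hoxa6, and of Hoxb3 and Hoxb5, overlap. Open regions were called on the pooled libraries from 200 bp windows moved by 50 bp. A window counted as open at a Poisson p under 1e-05, with the expected count taken from the whole genome or from 10000 bp around it, whichever was larger, and open windows within 150 bp were merged. Ratios are log2 of KO over WT after 0.5 was added to each count, and were scaled by the autosomal insertions inside open regions. Ratio intervals are Clopper-Pearson and count intervals exact Poisson, both at 95%. PCR copies that share a position are removed and distinct molecules cut at one position are lost with them.

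The ratio intervals were tested on simulated counts and the region calls on simulated positions with planted regions. The counting of reads was not simulated. Members were chosen by symbol and not by value, but earlier results of these data were known when members, lists, windows and thresholds were set. All members may be named. Values are given for the 3 with most insertions and the one with fewest in each cluster, and for those with an open region. Values of other members were chosen after they were seen. Of other lists, genes with most insertions are named. Six6, Evx1, Evx2, Skap1, Skap2, Calcoco2, Ttll6, Meis3, Isl1, Dct, Best1, Tyr and Rpe65 were chosen after their values were seen. Some genes, such as Crx, Meis2, Isl1, Myod1 and Myf5, belong to 2 lists. Alternatives covered the window, gene end, minimum count, mapping quality, repeats, shift, scaling, the extent of the clusters and the start site. Python 3.11.15, numpy 2.4.6, scipy 1.17.1 and pandas 2.3.3 were used. Sequences of open regions were not analysed here.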

Additional observations from a re-analysis of the deposited data

How the results depend on the processing

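Of 126 values recomputed under alternatives for the counts of members, the gene-end sum and the cluster densities and ratios, 118 stayed within their counting interval or within 1.5 times the first count, and 8 moved, all of them small counts of members. No ratio whose interval excludes 0 changed sign. The number of members with at least 20 insertions was 1; it was 2 with repeated reads kept, 0 with windows of 250 bp, 7 with windows of 1000 bp, 3 with both gene ends summed, 7 at a minimum of 10 insertions, 0 at a minimum of 50, and 0 at the start site of the promoter table. The changes with the window, the ends and the minimum follow from their construction, and at the start site Hoxa4 has no entry; for repeated reads the cause was not tested. The number with an open region was 3, and it was 1 at the start site, where 22 of 38 members have an entry. The number of members past 2-fold was 0 under each alternative run. The 4-cluster log2 ratio ran from 0.14 to 0.24 over 8 alternatives, with lower bounds of 0.01 to 0.10, and the gene-end sum, -0.03 with an interval that includes 0, from -0.29 to 0.05 over 10, with 0.05 and a changed sign when repeated reads were kept. The start site, the shorter HoxB and the reads of any mapping quality were alternatives chosen after seeing the data. Scaling to all autosomal insertions lowers every log2 ratio by 0.06.

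No paired analysis was possible because each genotype had 1 library. Depth limits the single members: 37 of 38 members had under 20 insertions over both libraries, and no interval of a single member excluded 0, also where the 2 counts differed by more than 2-fold. The intervals do not include the spread between animals, which was not measured here.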
